A study of Mus musculus with 2 samples.

Results

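The 10 genes described here encode the transcriptional regulators of fuel oxidation and mitochondrial biogenesis: the 3 peroxisome proliferator-activated receptors (Ppara, Ppard, Pparg), the 3 estrogen-related receptors (Esrra, Esrrb, Esrrg), the PGC-1 coactivators Ppargc1a and Ppargc1b, the corepressor Nrip1 and the nuclear respiratory factor Nrf1. They were picked out by gene symbol, as 10 of the 43346 Ensembl genes in the gene tables and the 64 transcripts listed for them in the transcript tables. RNA came from the heart of 1 adult female C57BL/6J mouse aged 10 weeks, with no treatment or genetic change named in the labels. Its poly(A) RNA was measured in 2 libraries that the labels call technical replicates 1 and 2. Replicate 2 was made later, in May 2015, and did not belong to the original publication. With 1 animal there is no group to compare, and any spread between the libraries is technical.

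PPARs are nuclear receptors that bind DNA as partners of retinoid X receptors and are switched on by fatty acids and their derivatives. ERRs are orphan receptors that bind DNA without a known natural hormone and depend on PGC-1 coactivators, which also bind PPARs and Nrf1. In heart muscle these proteins are known for driving the genes of fatty acid oxidation, the respiratory chain and mitochondrial DNA upkeep, while Nrip1 recruits repressor complexes to the same receptors.

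The receptors share a DNA-binding domain. The bases that encode its first zinc finger show how paralogs of a family, with nearly the same residues there, differ in base composition. The library ratios given below followed the GC content of whole transcripts, not the order of GC content in this finger. The stretch from the first to the fourth zinc-holding cysteine of the first zinc finger spans 21 codons in each of the 5 receptors shown and lay within 1 exon in each. The sequences are read from the GENCODE M21 transcripts on mm10, 5′ to 3′, with capitals where the third base of a codon is G or C.
Esrra, chr19:6920091-6920153, minus strand: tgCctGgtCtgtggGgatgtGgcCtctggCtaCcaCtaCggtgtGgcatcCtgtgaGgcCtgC
Esrrb, chr12:86470465-86470527, plus strand: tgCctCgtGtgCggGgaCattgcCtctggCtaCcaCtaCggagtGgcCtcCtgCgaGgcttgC
Esrrg, chr1:188043659-188043721, plus strand: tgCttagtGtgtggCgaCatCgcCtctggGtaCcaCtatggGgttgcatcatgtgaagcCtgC
Ppara, chr15:85787203-85787265, plus strand: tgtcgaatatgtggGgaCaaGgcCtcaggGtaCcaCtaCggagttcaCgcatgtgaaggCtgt
Ppard, chr17:28295430-28295492, plus strand: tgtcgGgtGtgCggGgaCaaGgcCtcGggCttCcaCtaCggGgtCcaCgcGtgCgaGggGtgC

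Ppara and Ppard encode the same residue at 19 of these 21 codons, with 49 of 63 bases the same. The third base was G or C in 20 of 21 codons in Ppard and in 10 in Ppara. Esrrb and Esrrg encode the same residue at 21 of 21 codons with 49 of 63 bases the same, and the third base was G or C in 17 codons of Esrrb, 15 of Esrra and 12 of Esrrg. The GC content of the whole stretch was 71.4% in Ppard, 65.1% in Esrrb, 63.5% in Esrra, 55.6% in Esrrg and 54.0% in Ppara.

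Composition outside the coding region differed more. In the leading transcripts the 3′ UTR was poor in GC in Ppargc1a-203 (36.66% over 3933 bases), Nrip1-202 (35.01% over 3785) and Esrrg-201 (39.02% over 3749), against coding regions of 49.27%, 50.93% and 51.38%. In Esrra-201 the 3′ UTR held 58.30% GC and the coding region 61.77%, and in Ppard-201 59.21% and 58.79%. Over the whole gene, averaged over its transcripts by abundance, GC content ran from 42.8% in Ppargc1a to 61.6% in Esrra.

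The 2 libraries differed in how much nuclear RNA they held and in base composition. Replicate 1 held 22775991 counts and replicate 2 held 19685821, of which 5028154 and 12654724 came from nuclear genes other than near-identical copies of mitochondrial genes. Nuclear genes made up 7.22% and 39.1% of TPM (an abundance per transcript length, scaled to a fixed sum per library). Levels are therefore also given as nuclear TPM, rescaled to the same sum without mitochondrial genes and their copies, which changes no order within a library. The mean GC content of nuclear counts was 45.04% in replicate 1 and 50.51% in replicate 2. All 8 cardiomyocyte markers looked up (Myh6, Tnnt2, Tnni3, Actc1, Myl2, Pln, Ryr2 and Mybpc3) stood at 1 TPM or more in both libraries.

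All 10 regulators were detected in both libraries, at levels that spanned from 2 to 2643 counts. At 1 TPM or more stood 4 of them in replicate 1 (Ppargc1a, Esrrg, Nrip1 and Ppara) and 10 in replicate 2, and at 1 nuclear TPM or more 8 and 10. Their summed level was 353.7 nuclear TPM in replicate 1 and 349 in replicate 2, nearly the same total with a different make-up. Ppargc1a and Esrrg carried 51.4% and 28.6% of that sum in replicate 1, while Esrra carried 39.1% and Ppargc1a 19.6% in replicate 2.

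**Figure D1:**
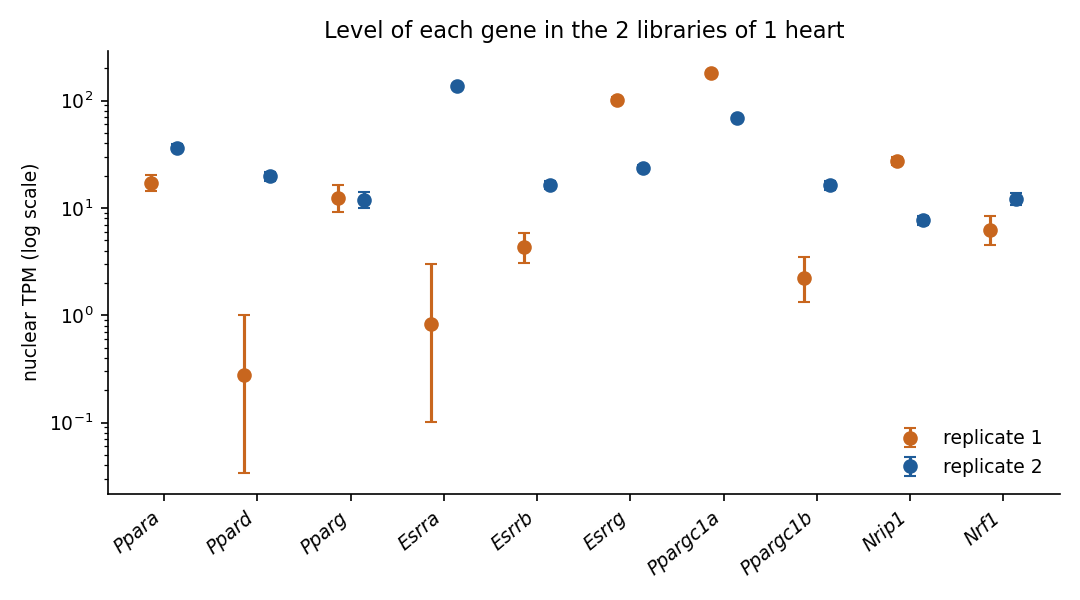
Level of each of the 10 genes in nuclear TPM (log axis) in technical replicate 1 (orange) and 2 (blue) of 1 heart; bars are exact 95% Poisson intervals of the count and cover counting error only. Esrra and Ppard, with 2 counts each in replicate 1, show the widest gaps between the libraries, and the Pparg points lie together at 12.3 and 11.9.

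Within replicate 1 the order by TPM was Ppargc1a, Esrrg, Nrip1, Ppara, Pparg, Nrf1, Esrrb, Ppargc1b, Esrra and Ppard. Neighbours whose ratio had an exact 95% interval that held 1 were Ppara and Pparg (1.39, 0.992 to 1.98), Nrf1 and Esrrb, Ppargc1b and Esrra, and Esrra and Ppard. Within replicate 2 it was Esrra, Ppargc1a, Ppara, Esrrg, Ppard, Esrrb, Ppargc1b, Nrf1, Pparg and Nrip1, and the interval held 1 for Esrrb and Ppargc1b (1.01, 0.885 to 1.15) and for Nrf1 and Pparg (1.02, 0.829 to 1.27). Ppargc1a was among the highest 2 in both orders, whereas Esrra went from the ninth place to the first.

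Ppara, the receptor best known for fatty acid oxidation in heart, is on chromosome 15 (85734983-85802819, plus strand; coordinates of all genes are those of release M21 on mm10). Replicate 1 held 129 of its counts and replicate 2 held 718, or 1.23 and 14.2 TPM. On the nuclear scale these were 17.0 and 36.4, a mean of 26.7 ± 13.7 (SD, n = 2 libraries). The libraries differed by more than counting error: its scaled count was 2.24-fold higher in replicate 2 (95% interval 1.85 to 2.72; edgeR exact binomial test, Benjamini-Hochberg adjusted p = 1.2e-19).

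Ppard, the broadly expressed paralog (chromosome 17, 28232700-28301474, plus strand), had 2 counts in replicate 1 and 434 in replicate 2. Its level was 0.277 nuclear TPM (0.0336 to 1.00 by the Poisson interval) and 19.7, so the libraries did not overlap within counting error. With 2 counts the ratio of scaled counts, 87.2-fold higher in replicate 2, had an interval from 24.0 to 722.

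Pparg, the regulator of fat storage (chromosome 6, 115360951-115490399, plus strand), had 48 and 148 counts. Its nuclear TPM were 12.3 (9.09 to 16.4) and 11.9 (10.0 to 13.9), with a mean of 12.1 ± 0.33 (SD, n = 2 libraries), and the intervals overlapped. Of the 10 regulators it alone was not called different between the libraries, with a log2 ratio of 0.30 in favour of replicate 2 (adjusted p = 0.23, edgeR exact binomial test).

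Ppara had the highest TPM of the PPARs in both libraries, though in replicate 1 it could not be separated from Pparg within counting error. Ppara made up 57.5% of the summed PPAR TPM in replicate 1 and 53.5% in replicate 2. Pparg took 41.6% and 17.5%, and Ppard 0.935% and 29.0%. Pparg stood 43.6-fold above Ppard in replicate 1 (exact interval 11.4 to 370), and Ppard 1.66-fold above Pparg in replicate 2 (1.38 to 2.02).

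Esrra, the receptor that acts with PGC-1 on respiratory chain genes (chromosome 19, 6910977-6921813, minus strand), had 2 counts in replicate 1 and 1974 in replicate 2. In nuclear TPM these were 0.831 (0.101 to 3.003) and 137 (131 to 143), with no overlap. Among nuclear genes it ranked 12466 in replicate 1 and 999 in replicate 2. Its scaled count was 396-fold higher in replicate 2 (interval 110 to 3275; adjusted p = 2.08e-283, edgeR exact binomial test), the largest ratio of the 10 genes. Its exons share 73 bases with Trmt112 on the other strand, which had 12 and 240 counts. With no strand setting stated for the counting, reads in that stretch cannot be told apart.

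Esrrb, known for its role in pluripotent cells and also made in muscle (chromosome 12, 86361117-86521628, plus strand), had 42 and 506 counts. These gave 4.30 nuclear TPM (3.10 to 5.81) in replicate 1 and 16.5 (15.0 to 17.9) in replicate 2, without overlap. The ratio of scaled counts was 4.84 (3.53 to 6.80).

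Esrrg, the paralog known for high levels in oxidative muscle (chromosome 1, 187608791-188214885, plus strand), went the other way. It had 1208 counts in replicate 1 and 900 in replicate 2, or 101 nuclear TPM (95.5 to 107) against 23.5 (22.0 to 25.1). Its scaled count was 3.34-fold higher in replicate 1 (3.06 to 3.65). Before rescaling its TPM were 7.30 and 9.19, so the library with the higher TPM as deposited was the one with the lower nuclear TPM.

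The leading ERR therefore differed between libraries of the same heart. Esrrg made up 95.2% of the summed ERR TPM in replicate 1 and 13.3% in replicate 2, and Esrra 0.782% and 77.4%. Esrrg stood 113-fold above Esrra in replicate 1 (exact interval 31.1 to 930), and Esrra 5.81-fold above Esrrg in replicate 2 (5.37 to 6.30). Esrrb took 4.04% and 9.31%. Esrrg was above Esrrb in both libraries, 23.2-fold (17.0 to 32.3) and 1.43-fold (1.28 to 1.60).

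**Figure D2:**
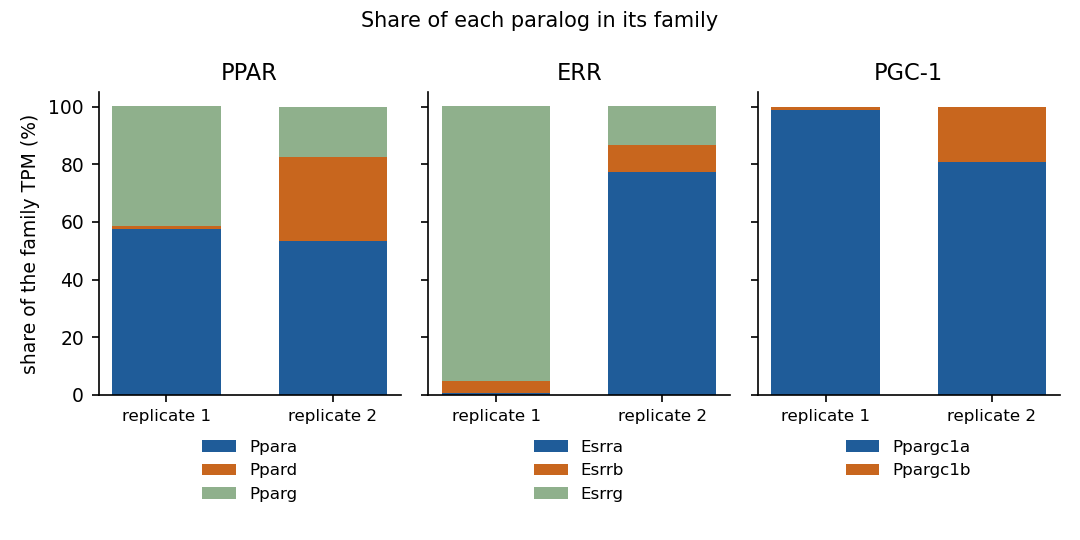
Stacked bars give the share of each paralog in the summed TPM of its family (PPAR, ERR, PGC-1) in replicate 1 and replicate 2. Esrrg fills 95.2% of the ERR bar in replicate 1 and Esrra 77.4% in replicate 2, while Ppara and Ppargc1a have the largest share of their families in both (Ppara 57.5% beside Pparg 41.6% in replicate 1).

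Set among 49 nuclear receptor genes of the tables, Esrrg ranked 3 by TPM in replicate 1, below the circadian repressor Nr1d2 (16.2 TPM) and the glucocorticoid receptor Nr3c1 (9.54 TPM). Ppara ranked 11, Pparg 13, Esrrb 21, Esrra 35 and Ppard 37 in that library. In replicate 2 Esrra ranked 1, at 53.4 TPM, followed by Ppara at 11, Esrrg at 15, Ppard at 16, Esrrb at 17 and Pparg at 22. Ppara thus held the same rank in both. Its obligate partners, the retinoid X receptors, together reached 1.30 TPM in replicate 1 and 61.3 TPM in the other library. On the nuclear scale, which sets aside the differing share of mitochondrial RNA, their sums were 18.01 and 156.7 nuclear TPM. Rxrg made up 59.2% and 47.9% of the sum, Rxra 35.4% and 24.6%, and Rxrb 5.38% and 27.6%.

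Ppargc1a, the inducible coactivator of mitochondrial biogenesis (chromosome 5, 51454250-51567726, minus strand), was the most counted of the 10 genes in both libraries, with 2635 and 2643 counts. These were 182 nuclear TPM (175 to 189) in replicate 1 and 68.5 (65.9 to 71.1) in replicate 2, a mean of 125 ± 80.2 (SD, n = 2 libraries). The intervals were far apart, and the scaled count was 2.48-fold higher in replicate 1 (2.35 to 2.62).

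Ppargc1b, its paralog (chromosome 18, 61298136-61400431, minus strand), had 18 and 408 counts, or 2.22 (1.31 to 3.50) and 16.3 (14.7 to 17.9) nuclear TPM. It moved opposite to Ppargc1a, with a scaled count 9.10-fold higher in replicate 2 (5.69 to 15.5). Ppargc1a stood above Ppargc1b in both libraries, 82.0-fold in replicate 1 (exact interval 51.8 to 139) and 4.21-fold in replicate 2 (3.79 to 4.68). The direction held in both, and the size of the gap differed between them by more than counting error.

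Nrip1, also called RIP140, is a corepressor of PPARs and ERRs (chromosome 16, 76287400-76373827, minus strand). It had 493 and 446 counts, or 27.4 (25.06 to 29.96) and 7.67 (6.98 to 8.42) nuclear TPM, with no overlap. The scaled count was 2.75-fold higher in replicate 1 (2.42 to 3.14). Set against Ppargc1a it differed less, though beyond counting error: Ppargc1a stood 6.63-fold above Nrip1 in replicate 1 (6.02 to 7.32) and 8.91-fold in replicate 2 (8.06 to 9.88). On the log2(TPM + 0.1) scale the ratio of Nrip1 to Ppargc1a was -2.89 ± 0.32 (SD, n = 2 libraries), the smallest spread of the 7 ratios between the regulators.

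Nrf1, an activator of nuclear genes for mitochondrial proteins (chromosome 6, 30047988-30153458, plus strand), had 42 and 232 counts. Its nuclear TPM were 6.23 (4.49 to 8.43) and 12.1 (10.6 to 13.8), again without overlap, and the ratio of scaled counts was 2.22 (1.59 to 3.16).

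In all, 6 of the 10 regulators were higher in replicate 2 and 3 were lower, at an adjusted p under 0.05 in edgeR's exact binomial test and a change of at least 2-fold. The test compares these 2 libraries, not conditions. Of all 13182 genes tested, 40.5% were higher in replicate 2, 24.0% were lower and 64.5% changed in either direction, so differences of this size were common in the whole table. The median log2 ratio was 1.15 over the 10 regulators and 0.367 over all genes tested.

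The ratio of each regulator followed the GC content of its transcripts. Esrrg, Ppargc1a and Nrip1, with 42.8% to 43.6% GC, had log2 ratios from -1.74 to -1.31. Pparg, at 49.4%, had 0.30, and Nrf1 and Ppara, at 51.9% and 52.3%, had 1.14 and 1.16. Esrrb at 55.4%, Ppargc1b at 57.3%, Ppard at 59.7% and Esrra at 61.6% had 2.26, 3.15, 6.12 and 8.31. Across the 10 genes Pearson's r was 0.947 and Spearman's rho 0.964, and across the 13115 tested genes with a GC value 0.849 and 0.899. The genes share the same 2 libraries and are not independent replicates, so these coefficients are descriptions.

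In the wide GC bins given here the median moved the same way as 9 of the 10 regulators. Pparg (0.30) lay on the other side of 0 from the median of its bin, near whose upper edge it falls. In its narrower bin, of the 50 used for the GC trend, the median was 0.23, on the same side as Pparg. The median log2 ratio of all tested genes was -1.35 between 40 and 45% GC, where Esrrg, Ppargc1a and Nrip1 lie, and -0.31 between 45 and 50%, the bin of Pparg. It was 1.41 between 50 and 55% (Ppara and Nrf1), 3.71 between 55 and 60% (Ppard, Esrrb and Ppargc1b) and 5.17 at 60% or more (Esrra). In that last bin 95.8% of genes were called higher in replicate 2.

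**Figure D3:**
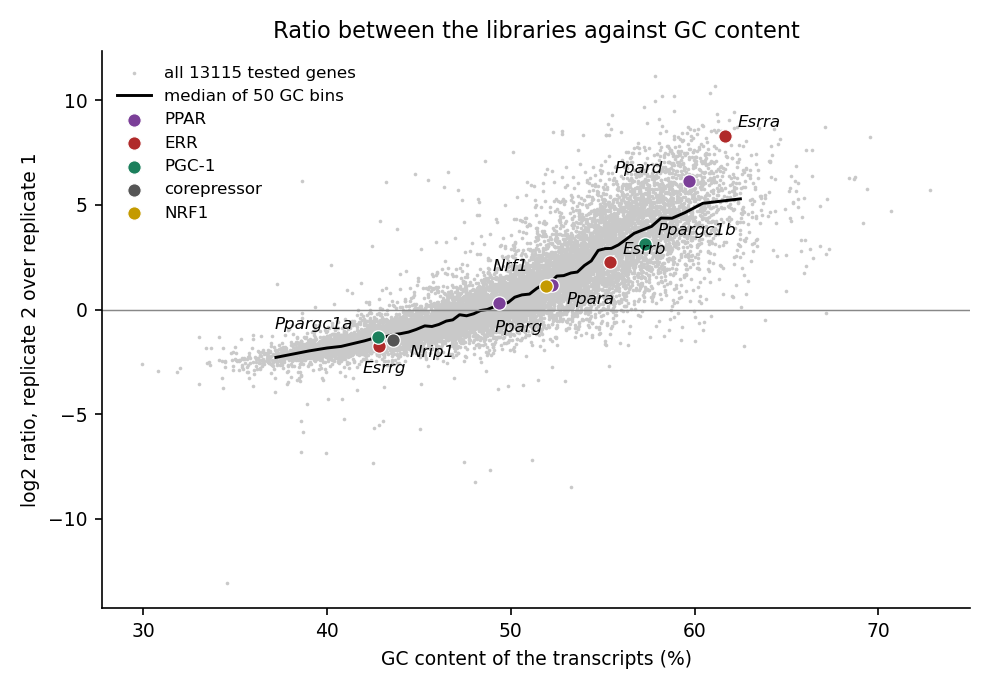
Log2 ratio of scaled counts, replicate 2 over replicate 1, against the GC content of the transcripts in percent; grey points are the 13115 tested genes, the black line joins the medians of 50 GC bins and coloured points are the 10 regulators by family. Esrrg, Ppargc1a and Nrip1 lie below 0 at the GC-poor end, Esrra lies above the line at 61.6% GC, Ppard lies above it at 59.7%, and the other 5 fall within 2-fold of it.

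When the median ratio of genes with like GC content was subtracted, 1 of the 10 regulators, Esrra, was still called different, beside 10.2% of all genes called higher and 10.8% called lower in replicate 2. Its log2 ratio was 3.03 (adjusted p = 3.54e-06, edgeR exact binomial test with the GC trend removed), down from 8.31, and it rests on 2 counts in replicate 1. Ppard kept 1.498 and did not pass (adjusted p = 0.101, same test). The other 8 fell within 2-fold, from -0.66 for Esrrb to 0.07 for Pparg. Of these, Esrrg (-0.39), Nrip1 (-0.26) and Esrrb still differed beyond counting error. Their adjusted p were 4.28e-09, 0.0143 and 0.0184 in the same edgeR exact binomial test, so they missed only the 2-fold cut. Ppara, Esrrb, Ppargc1a, Ppargc1b and Nrf1 changed sign in the process, with values of -0.11, -0.66, 0.04, -0.64 and -0.13. What made base composition differ between the libraries was not tested.

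**Figure D4:**
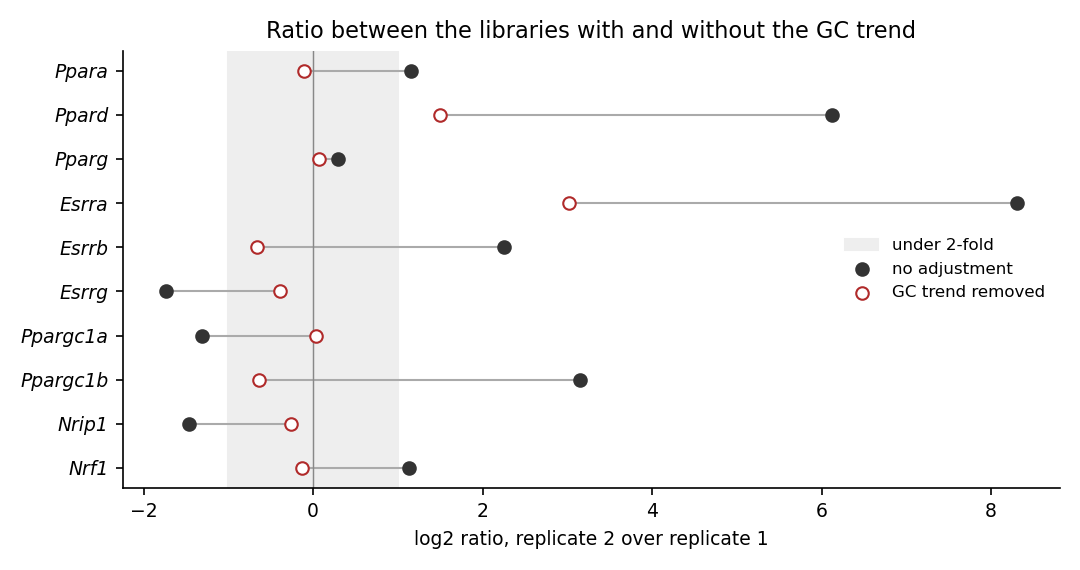
Log2 ratio of each regulator, replicate 2 over replicate 1, without adjustment (filled) and with the GC trend of all genes removed (open); the grey band marks changes under 2-fold. Esrra at 3.03 and Ppard at 1.498 are the 2 open points outside the band.

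The ratios within families, on the log2(TPM + 0.1) scale, also moved when replicate 1 was brought to the GC profile of replicate 2. The added 0.1 TPM exceeds the 0.06 TPM of Esrra and the 0.02 TPM of Ppard in replicate 1, each from 2 counts. It sets much of their adjusted ratios, so these do not establish their place among the paralogs in replicate 1. Esrra over Esrrg in replicate 1 went from -5.53 to 1.10 (2.53 in replicate 2). The sign of that adjusted value depends on the added 0.1 TPM. The log2 ratio of Ppargc1a to Ppargc1b in replicate 1 went from 5.67 to 0.53, against 2.06 in replicate 2. Esrrg over Esrrb went from 4.17 to -0.10 (0.51 in replicate 2). With Esrrb at 0.31 TPM in replicate 1, the added 0.1 TPM also decides on which side of 0 that value falls. Ppara over Ppard went from 3.47 to 0.10 (0.88 in replicate 2), and Ppard over Pparg from -3.04 to 1.35 (0.72 in replicate 2). Both rest on the 0.02 TPM of Ppard in replicate 1, and the sign of the adjusted Ppard over Pparg ratio depends on the added 0.1 TPM. Nrip1 over Ppargc1a, 2 genes with almost the same GC content, went from -2.67 only to -2.52 (-3.12 in replicate 2).

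More transcripts were detected in replicate 2. Of the 64 annotated transcripts, 16 were above 0 in replicate 1 and 31 in replicate 2, and 7 genes had all abundance on 1 transcript in replicate 1. The leading transcript was the same in both libraries for 8 of 10 genes by the deposited shares. By the posterior means it differed in Ppard and Ppargc1b as well, where the noncoding Ppard-204 (47.9%) and Ppargc1b-203 (48.8%) led in replicate 1, on 2 and 18 counts of the gene. In Esrra the 2 counts of replicate 1 were split as 1.32 on the protein-coding Esrra-201 and 0.68 on the short noncoding Esrra-204, which gave the latter 69.6% of abundance, whereas Esrra-201 held 90.9% in replicate 2. That split also gave Esrra an effective length of 951 bases in replicate 1 and 1911 in replicate 2, which raised its TPM in replicate 1. In Nrf1 the lead went from Nrf1-211 (78.2%) to Nrf1-210 (47.0%), which start close together and encode coding regions of the same length (1509 bases).

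The other leaders were Ppara-202 with 100% in replicate 1 and 75.02% in replicate 2, Ppard-201 with 100% and 93.0%, Ppargc1b-202 with 100% and 95.4%, and Nrip1-202 with 100% in both. In Ppara the noncoding Ppara-204 was at 0 in replicate 1 and at 10.4% in replicate 2, on 4.99 counts. Beside Nrf1-210, Nrf1-202 (15.95%, 21.5 counts) and Nrf1-212 (11.6%, 6.41 counts) were at 0 in replicate 1 and at 10% or more in replicate 2. Such shares rest on few counts and on how the program splits reads.

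Pparg, Esrrb, Esrrg, Ppargc1a and Nrf1 had abundance at more than 1 start, with starts over 1000 bases apart counted as separate. The windows before the starts of Pparg and Esrrb are shown because the use of these starts is what the transcript tables measure, together with that of Esrra, the gene with the largest difference. They are the bases before the RefSeq start, up to the first annotated exon, on GRCm38.p6 (mm10), 5′ to 3′, with capitals at matches to the motifs named further on, which of these 5 windows only that of Esrra holds.
Pparg upstream start, chr6:115360894-115360950, plus strand: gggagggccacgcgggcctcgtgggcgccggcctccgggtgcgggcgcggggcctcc
Pparg downstream start, chr6:115421816-115422065, plus strand: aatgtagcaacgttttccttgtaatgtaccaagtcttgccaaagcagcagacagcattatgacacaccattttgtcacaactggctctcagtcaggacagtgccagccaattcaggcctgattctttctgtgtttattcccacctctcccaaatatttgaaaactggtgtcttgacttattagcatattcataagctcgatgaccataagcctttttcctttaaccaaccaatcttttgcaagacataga
Esrrb upstream start, chr12:86360867-86361116, plus strand: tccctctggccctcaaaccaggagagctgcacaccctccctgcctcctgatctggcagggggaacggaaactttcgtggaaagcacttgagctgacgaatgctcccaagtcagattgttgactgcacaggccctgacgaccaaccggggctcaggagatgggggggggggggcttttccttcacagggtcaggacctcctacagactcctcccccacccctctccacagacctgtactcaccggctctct
Esrrb downstream start, chr12:86421394-86421643, plus strand: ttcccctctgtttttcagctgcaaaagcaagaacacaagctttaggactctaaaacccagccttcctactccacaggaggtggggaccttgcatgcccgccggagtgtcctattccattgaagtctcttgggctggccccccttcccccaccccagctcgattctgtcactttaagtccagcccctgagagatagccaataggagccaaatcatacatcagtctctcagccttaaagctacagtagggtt
Esrra, chr19:6921814-6922058, minus strand: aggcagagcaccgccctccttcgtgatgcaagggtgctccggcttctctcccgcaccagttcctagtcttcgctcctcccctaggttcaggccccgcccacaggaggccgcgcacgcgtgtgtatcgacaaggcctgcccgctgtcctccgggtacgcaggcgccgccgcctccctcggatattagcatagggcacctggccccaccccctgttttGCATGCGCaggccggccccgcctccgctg

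The upstream Pparg start, which gives Pparg-202 and encodes the PPAR gamma 1 protein, carried 100% of abundance in replicate 1 and 79.6% in replicate 2 (48 and 119 counts). The downstream start, which gives Pparg-201, the longer PPAR gamma 2 form of fat cells, was at 0 in replicate 1 and at 20.4% in replicate 2, on 28.9 counts. By the posterior means Pparg-201 held 17% and 26.2%, so its absence from replicate 1 is not established. The window before the upstream start held 87.7% GC and that before the downstream start 40.8%.

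In Esrrb the upstream start (Esrrb-204) carried 42 counts and 100% in replicate 1, and 298 counts and 58.3% in replicate 2. The downstream start (Esrrb-203) was at 0 and then at 41.8%, on 208 counts. By the posterior means Esrrb-203 held 13.2% and 38.8%, so its absence from replicate 1 is not established either. In Esrrg the downstream start (Esrrg-201 and Esrrg-202) led with 100% and 89.7%, and the upstream start, Esrrg-203, took 0% and 10.3% (85.4 counts). In Ppargc1a the downstream start of Ppargc1a-203 and Ppargc1a-201 held 98.8% and 87.0%. Its upstream start, at 51567726, held 1.23% and 13%, on 3.45 and 34.2 counts. Part of the Ppargc1a abundance lay on forms annotated as targets of nonsense-mediated decay, with Ppargc1a-201 at 0.45% and 11.2%. In Nrf1 the first start group led with 84.3% and 80.8%, and 2 further groups held 9.16% and 6.50% in replicate 1 (1 count each) and 15.95% and 3.23% in replicate 2 (21.5 and 3.15 counts).

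**Figure D5:**
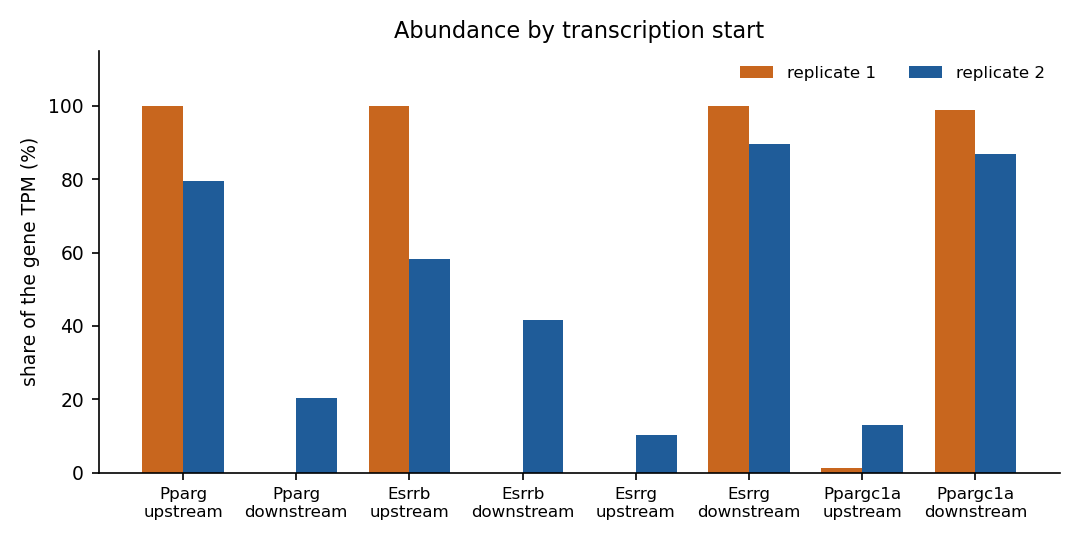
Share of each gene's TPM in percent that came from its upstream and downstream transcription starts, in replicate 1 (orange) and replicate 2 (blue). The major start is the same in both libraries for Pparg, Esrrb, Esrrg and Ppargc1a, and the minor start is at 0 in replicate 1 for the first 3 of these.

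RefSeq promoter windows, from 250 bases before to 50 after a start, matched 9 of the 10 genes with 17 windows. Their GC content was highest for the first Pparg window (80.3%), Nrf1 (77.0%), Ppara (74.7%) and the downstream Nrip1 window (73.3%), against a median of 52.7% over all 32851 windows. Esrra had 66.0%, Ppard 68.3%, and the Esrrg window at its major start 60%. Ppargc1a, with a window only at its upstream start, had 48.7%. High GC in the promoter did not go with high GC in the transcript in each case, since the major Esrrg start had 60% before a transcript of 42.7%.

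Short motifs were searched on both strands of these windows as letters only. GCATGCGC, the core that NRF1 prefers, was in the windows of Ppara (2 matches) and Esrra (1 match, in capitals above), and in 2.71% of all windows. AGGTCA, the hexamer that ERRs and PPARs bind, was in 2 of the 17 windows, both of Pparg, and in 16.3% of all windows. With a further A in front (AAGGTCA, which contains the hexamer and is the form ERRs prefer) it was in none of the 17 and in 4.72% of all, and 2 copies of AGGTCA 1 base apart, the element of PPAR with its partner, in none of the 17 and in 0.0396%. CACGTG, an E-box, was in none of the 17 windows and in 7.15% of all, and the TATA box letters TATAAA in 3 (of Esrrg, Nrf1 and Pparg) and in 13.6% of all.

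Genes known as targets of these regulators were looked up list by list. Of 30 PPAR target genes, 15 were called higher in replicate 2 and 2 lower, with a median log2 ratio of 1.07, and 5 and 1 with the GC trend removed. Over all genes tested the shares were 40.5% higher and 24.0% lower, and 10.2% and 10.8% with the GC trend removed, which holds for each list that follows. The 2 called lower were Lpl, which frees fatty acids from lipoproteins (12469 and 3534 nuclear TPM, log2 ratio -1.45), and the fatty acid transporter Cd36 (5073 and 1133, -1.79). Hadhb of mitochondrial beta-oxidation stood at 9285 and 2256 nuclear TPM, on 18053 and 31337 counts. Its log2 ratio of scaled counts, -0.52, was smaller in size than that gap in nuclear TPM and was not called. Fabp3, which carries fatty acids in heart muscle, was called higher (1423 and 8022 nuclear TPM, 2.87). Ucp2 had 7 and 1373 counts and Mlycd, which removes malonyl-CoA, 13 and 1584.

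Of 30 ERR and PGC-1 target genes, Esrra itself among them, 20 were called higher and 2 lower, with a median of 1.58 against 0.367 over all genes, and 10 and 0 with the GC trend removed, beside 40.5% and 24.0% of all genes, and 10.2% and 10.8%. Of the 4 highest by mean TPM, 3 were called higher: Mb, the oxygen carrier myoglobin (2134 and 22162 nuclear TPM), Atp5b of ATP synthase (2769 and 7551) and the ADP/ATP carrier Slc25a4 (2165 and 4903). The fourth, Ndufa4 of the respiratory chain, stood at 7083 and 4244 nuclear TPM and was not called (log2 ratio -0.37). Cox6a2, the striated muscle form of a cytochrome c oxidase subunit, was counted 16 and 13784 times, and its log2 ratio of 8.39 was 6.79 with the GC trend removed. Cycs and Gabpa were the 2 called lower, with log2 ratios of -2.04 and -1.49.

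Of 20 genes of the NRF1 axis and of mitochondrial DNA upkeep, 5 were called higher and 8 lower, with a median of -0.65 and a median GC content of 45.6%, beside 40.5% and 24.0% of all genes. With the GC trend removed 1 was higher (Polrmt, the mitochondrial RNA polymerase, 3 and 521 counts) and 1 lower (Yy1, 683 and 464 counts), beside 10.2% and 10.8% of all genes. Of 31 measured partners and cofactors 11 were higher and 6 lower, with a median of -0.11, and 5 and 3 with the GC trend removed. The lipase Pnpla2, which supplies PPAR ligands, had 35 and 5625 counts. Prkaa2, a catalytic subunit of the AMP kinase that acts on PGC-1, was called lower in replicate 2 (226.9 and 59.5 nuclear TPM, log2 ratio -1.56), as was the deacetylase Sirt1 (67.7 and 11.5, -2.11). The median ratios of the 4 lists stood in the same order as their median GC content, which was 51.9% for ERR and PGC-1 targets, 50.9% for PPAR targets and 49.9% for partners.

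Pparg and Ppargc1a are also made in fat, which can adhere to a heart, and in a bulk sample fewer cells of a type and less RNA per cell cannot be told apart. Of 8 adipocyte markers, 2 were at 1 TPM or more in both libraries (Adipoq at 17.5 and 21.2 nuclear TPM, Plin4 at 14.8 and 154). The 8 summed to 35.6 nuclear TPM in replicate 1 and 310 in replicate 2. The 7 tested had a median GC content of 56.3% and a median log2 ratio of 3.75, beside 3.71 for all genes between 55 and 60% GC. With the GC trend removed 2 of these 7 were called higher and 0 lower, beside 10.2% and 10.8% of all genes. Cidec was at 0 counts in replicate 1 and 165 in replicate 2, and Lep at 3 counts in each. Of 5 brown fat markers, Ucp1 had 72 and 367 counts (21.1 and 33.4 nuclear TPM) and Cidea 19 and 354, while Zic1 had 1 count in each. The sum of these 5 was 162 and 5267 nuclear TPM, of which Cox7a1, which heart muscle makes too, gave 131.5 and 5185. Blood vessel and macrophage cells also make Pparg, and the 8 endothelial markers summed to 1373 and 1954 nuclear TPM and the 8 macrophage markers to 250.5 and 383.2. With the GC trend removed, 2 of 3 tested brown fat, 2 of 8 endothelial and 3 of 7 tested macrophage markers were called higher and 0 lower. The part of these cells in the levels of Pparg, Pparg-201 and Ppargc1a was not tested.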

How the data were processed

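Poly(A) RNA of 1 mouse heart was measured in 2 technical libraries, and 43346 Ensembl genes were read from the authors' gene tables. The deposited tables give expected counts, TPM and FPKM per gene and transcript, and the share of a gene's abundance per transcript as a percent; FPKM was only read. The files name assembly mm10 and annotation release M4, per the labels and the file descriptions. The aligner, quantifying program and strand setting were not given in the sources used here. Deposited posterior means (other estimates of the same quantities) served as alternatives.

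Identifiers were matched without version to GENCODE M21 (63 of 64 member transcripts). Nuclear TPM leaves out mitochondrial genes and 11 nuclear copies (blastn 2.17.0, at least 95% identity over 90% of length). Expected counts were rounded and compared by a two-sided exact binomial test (edgeR 4.0.16, R 4.3.3, TMM-scaled sizes, 0.5 counts added for log2 ratios) over genes with at least 20 counts, with Benjamini-Hochberg adjustment, and called at adjusted p under 0.05 and 2-fold. The step was checked on simulated counts that held no GC trend, so the check does not cover that trend. Intervals are exact 95% Poisson or binomial and hold counting error alone, because reads without molecular identifiers do not count molecules. Pair ratios use log2(TPM + 0.1). The GC trend is the median log2 ratio in 50 GC bins. Promoters are RefSeq GRCm38.p6.

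Named genes are all members, their transcripts at 10% or more, the pair genes, and in each list the 4 of highest mean TPM and the 2 with the largest called ratio each way; of these a selection is printed, and 1 gene of a list and 1 receptor sequence are not reported here. Members and lists were chosen with earlier results of these data known. Python 3.11.15, numpy 2.4.6, scipy 1.17.1, pandas 2.3.3 and matplotlib 3.10.9 were used, and DESeq2 1.42.0 gave alternative size factors.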

Additional observations from a re-analysis of the deposited data

How the results depend on the processing

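Scaling by DESeq2 size factors or nuclear totals, no count filter, a filter of 100 counts and posterior mean counts changed no direction or call of the 10 regulators (50 of 50 values). The GC adjustment changed most. With the GC trend removed 2756 genes were called, 1339 higher and 1417 lower in replicate 2, against 8496, 5338 and 3158 without it. Calls among the 10 regulators fell to 1, among PPAR targets to 6, ERR and PGC-1 targets to 10, the NRF1 axis to 2 and partners to 8. The log2 ratios that changed sign became -0.11 (Ppara), -0.66 (Esrrb), 0.039 (Ppargc1a), -0.64 (Ppargc1b) and -0.13 (Nrf1). Bringing replicate 1 to the GC profile of replicate 2 took the mean log2 ratio of Ppargc1a to Ppargc1b from 3.86 to 1.30 and of Rxra to Rxrg from -0.80 to 0.30. The same step took the mean log2 ratio of Esrra to Esrrg from -1.50 to 1.81 and of Ppard to Pparg from -1.16 to 1.04. Esrra and Ppard stood below the added 0.1 TPM in replicate 1, so these means depend on it. For Ppard to Pparg the sign of the mean after the step does too, and for Esrra to Esrrg that of replicate 1 alone. These 2 ratios had opposite signs in the single libraries (from -5.53 to 2.53 and from -3.04 to 0.72 with 1 library left out). A pseudocount of 1 TPM took Nrip1 over Ppargc1a from -2.89 to -2.52. By posterior means the mean share over both libraries of Ppara-202 was 65.3%, of Ppard-201 46.9%, of Ppargc1b-202 68.4% and of Nrip1-202 89.2%. No paired analysis was possible because the libraries form 1 group. Counts of 2 for Esrra and Ppard in replicate 1 limit what can be said of them there.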
